A study of Homo sapiens with 16 samples.

Results

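The enzymes that write and erase cytosine methylation were followed through neural differentiation of human embryonic stem cells: the DNA methyltransferases DNMT1, DNMT3A and DNMT3B, their catalytically inactive relative DNMT3L, the dioxygenases TET1, TET2 and TET3, the recruiting factor UHRF1 and the thymine DNA glycosylase TDG. The genes were chosen by name for their role, with earlier results of these data known. Of the 9 names, 8 were matched to an identifier among the 57736 genes counted, UHRF1 was not analysed here, and 7 had enough reads to be tested among 24249 genes, DNMT3L being the exception. H9, an established human embryonic stem cell line, was differentiated by dual SMAD inhibition and sampled at 4 stages named by the day, D0 before neural induction and then D12, D30 and D70. At each stage 2 control libraries came from cells given the solvent DMSO and 2 came from cells given 40 µM Thiamet-G (TMG), an inhibitor of OGA, the enzyme that takes O-GlcNAc off proteins, in the undifferentiated cells as well as during differentiation. All libraries come from 1 cell line in unsorted cultures, and the comparison asks how raised O-GlcNAc alters gene expression over neurogenesis. The study calls the replicates biological but does not say which libraries share a culture, so the p-values measure the spread between these libraries.

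Cytosine methylation in mammals sits mostly on CpG dinucleotides. DNMT3A and DNMT3B set new methyl groups, DNMT3L stimulates them without catalysing the reaction, and DNMT1 copies the pattern onto the new strand after replication, guided by UHRF1. TET1, TET2 and TET3 oxidise methylcytosine with 2-oxoglutarate as a co-substrate, and TDG cuts out the most oxidised forms so that base excision repair can put back plain cytosine. DNMT3B and TET1 are known for high expression in pluripotent cells, DNMT3A and TET3 for roles in neurons and their progenitors. TET proteins bind OGT, the enzyme that adds O-GlcNAc, which is why these genes bear on an experiment with TMG.

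Library totals ran from 10334908 to 19836878 counts, and levels are given as CPM, in which counts are scaled to a common library size after TMM normalization. The titles of the libraries gave the groups, and a separate treatment tag names the opposite arm for 8 of the 16 libraries. The column names of the counts match the titles. Every TMG over control value rests on that choice. The loss of stem cell markers followed the stage: the summed CPM of 7 undifferentiated stem cell markers was between 3269 and 3742 at D0, 522 to 681 at D12, 28.9 to 83.5 at D30 and 1.98 to 5.36 at D70. Neural progenitor markers summed to 566 to 850 CPM at D0, 1500 to 1839 at D12, 2426 to 3463 at D30 and 1710 to 4641 at D70. Single progenitor markers did not all follow that sum. In controls 2 of the 5 tested were higher and 3 lower on D30 than on D12 (median log2 -0.60). On D70 1 was higher and 4 were lower than on D12 (median log2 -0.91). Neuron markers summed to only 212 to 1260 CPM on D70, and 3 libraries stood apart by the sum of 6 mesenchyme markers, among them the collagen gene COL1A1. All 6 mesenchyme markers were tested. The libraries were TMG replicate 2 of D30 with 29730 CPM in sum against 4343 to 5594 in the other libraries of D30, and on D70 control replicate 2 with 45310 and TMG replicate 2 with 59510 against 7333 and 3678. The other libraries of D70 were high in choroid plexus and roof plate markers, such as the thyroxine carrier TTR, with sums of 10260 CPM in control replicate 1 and 3148 in TMG replicate 1 against 352 and 44.3 in replicate 2 of each arm and at most 401 on D30. The main results on D30 and D70 are given with the 3 mesenchyme-high libraries, with values without them beside many of those results. Leaving them out leaves 1 library in the TMG arm of D30 and 1 in each arm of D70, assumed to vary like the other groups, and those of D70 are the choroid-high ones. The part of either set in the results was not tested. In such bulk samples, fewer cells of a type and less RNA per cell cannot be told apart.

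In the main fit DNMT3B and TET1 fell during differentiation, TET2 rose and TET3 passed between no pair of stages. The promoters of TET1 and TET3 are shown because these genes parted in their course although both encode enzymes that oxidise methylcytosine. Each line is the 250 bases that end just before the start of the canonical transcript, on the coding strand, read from the GRCh37 genome with every CpG in capitals: chr10:70319844-70320093 for TET1 and chr2:74211787-74212036 for TET3, both on the plus strand.
TET1: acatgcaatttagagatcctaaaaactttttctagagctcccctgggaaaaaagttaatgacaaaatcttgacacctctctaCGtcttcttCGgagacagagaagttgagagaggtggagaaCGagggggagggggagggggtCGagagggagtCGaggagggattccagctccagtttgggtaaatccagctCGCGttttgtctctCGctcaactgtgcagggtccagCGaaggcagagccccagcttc
TET3: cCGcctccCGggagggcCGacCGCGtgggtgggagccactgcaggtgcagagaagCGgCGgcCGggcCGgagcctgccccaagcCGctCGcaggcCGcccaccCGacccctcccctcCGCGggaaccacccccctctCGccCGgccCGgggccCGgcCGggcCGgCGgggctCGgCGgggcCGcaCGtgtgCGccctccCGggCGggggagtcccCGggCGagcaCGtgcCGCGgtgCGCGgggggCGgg
The TET3 window holds 37 CpGs, a number that 7.0% of 16053 promoters of the same length reach. The TET1 window holds 9, which 82.5% of promoters reach, beside a median of 21. CpG dinucleotides were thus dense before TET3 and sparse before TET1. The TET2 window, chr4:106067783-106068032, holds 34 CpGs, reached by 11.8% of promoters. Of the other members read, the windows held 11 CpGs for DNMT3L, 21 for DNMT1, 22 for TDG and 33 for DNMT3A. The windows of TET2, DNMT3L, DNMT1 and TDG overlap an annotated exon, and those of TET1, TET3 and DNMT3A do not. The data are RNA counts, so neither the methylation of these windows nor which start was used was measured.

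In control cells, 3 of the 7 tested members had changed by D12 relative to D0, beside 16.7% of all genes. With any 1 of the 4 control libraries left out fewer members passed on D12, and a smaller share of all genes passed too. DESeq2 called 4 members on D12, with 22.6% of all genes. By D30 and by D70, 5 of 7 differed from D0, beside 30.6% and 29.8%. The members that passed on D30 were DNMT3B, DNMT1, TET1 and DNMT3A, which fell, and TET2, which rose. On D70 TDG took the place of DNMT3A. The median log2 change of the 7 members was -0.40 on D12, -0.68 on D30 and -0.75 on D70, against medians over all genes of 0.0033, -0.02 and 0.03. All comparisons with D0 share the D0 libraries. Between later stages few members moved: only DNMT3B passed for D30 over D12, where 3.6% of all genes did, and for D70 over D12, where 11.1% did. With 1 control library left out, 0 members passed for D30 over D12 and 0 to 2 for D70 over D12. From D30 to D70 no member passed by edgeR or by DESeq2, beside 0.384% of all genes by edgeR and 7.08% by DESeq2, and 2 members, TET3 and TDG, had an unadjusted p under 0.05, as did 4468 of the 24249 genes.

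**Figure D1:**
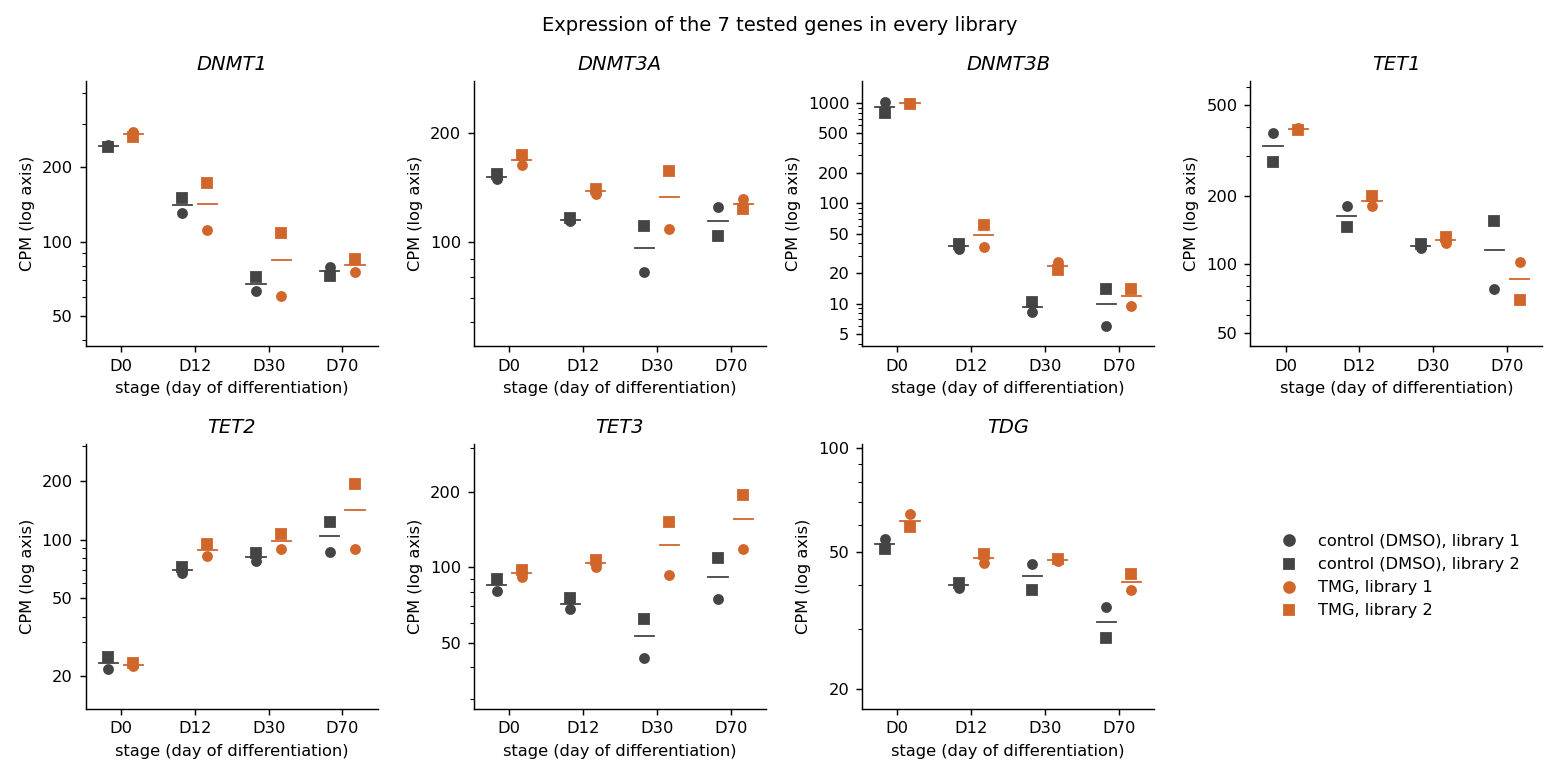
CPM (log axis) of the 7 tested members in each of the 16 libraries by stage, with a short bar at the mean of each arm of 2 libraries. DNMT3B drops from 787 to 1034 CPM on D0 to 6.04 to 14.2 CPM on D70, and TET2 climbs from 21.8 to 25.2 CPM to 86.3 to 193 CPM.

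DNMT3B, one of the pair of de novo methyltransferases and on chromosome 20 (ENSG00000088305, chr20:31350191-31397165, GRCh37), showed the largest change of the members. The control libraries of D0 had 1034 and 787 CPM, those of D12 35.2 and 39.2, those of D30 8.27 and 10.4 and those of D70 6.04 and 14.0. Every library of D0 thus stood far above every later one, and D30 and D70 overlapped. The fall from D0 was 24.5-fold by D12 (log2 -4.61, SE 0.42, adjusted p = 0.000264), 97.0-fold by D30 (log2 -6.60, SE 0.46, adjusted p = 4.64e-05) and 91.1-fold by D70 (log2 -6.51, SE 0.46, adjusted p = 2.74e-05). A further fall of 3.96-fold from D12 to D30 passed at an adjusted p of 0.021. That call was lost when any 1 of its 4 control libraries was left out, at adjusted p of 0.0871 to 0.178 with log2 changes of -2.17 to -1.83. The fall from D12 to D70 (log2 -1.90, adjusted p = 0.0126) was lost without D12 control replicate 1 or 2, at adjusted p of 0.0633 and 0.0637. Without the 3 mesenchyme-high libraries the D70 falls were larger, by 7.21 from D0 and by 2.61 from D12 on the log2 scale. In TMG-treated cells the falls from D0 were 20.6-fold, 42.0-fold and 84.2-fold.

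DNMT3A, the other de novo enzyme (ENSG00000119772, chr2:25450724-25565459, minus strand), stayed within a narrow range. Its control libraries had 149 and 154 CPM at D0, 114 and 116 at D12, 82.6 and 110 at D30, and 125 and 104 at D70. Later control libraries all lay below both of D0, and D30 and D70 overlapped. The 1.57-fold fall by D30 passed (log2 -0.65, SE 0.20, adjusted p = 0.0312), and the difference on D70 did not (log2 -0.40, SE 0.20, adjusted p = 0.147). The D30 call was lost without D0 control replicate 1, D0 control replicate 2 or D30 control replicate 1, at adjusted p of 0.0907 to 0.205, when the 8 control libraries were fitted alone (0.0506) and without the filter on low counts (0.0969). In TMG-treated cells no stage passed against D0, with log2 changes between -0.40 and -0.29. Without the 3 mesenchyme-high libraries the D30 log2 change was -0.65, then resting on TMG replicate 1 alone. DNMT3AP1, a pseudogene copy of DNMT3A, had 17 counts over all libraries.

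The balance of the de novo pair therefore turned over. The CPM ratio of DNMT3A to DNMT3B was 0.144 and 0.196 in the D0 controls and 0.162 and 0.176 in the D0 TMG libraries. On D12 it ranged from 2.32 to 3.70, on D30 from 4.17 to 10.5 and on D70 from 7.35 to 20.3. No library of a later stage overlapped D0. Over the 4 libraries of a stage, both arms together, the mean log2 ratio was -2.57 ± 0.19 (SD) at D0, 1.59 ± 0.28 at D12, 2.90 ± 0.61 at D30 and 3.52 ± 0.66 at D70. Each of D12, D30 and D70 exceeded D0, and D30 and D70 exceeded D12, at p = 0.0286 by an exact two-sided permutation test, the smallest p that 4 against 4 libraries allow (adjusted p = 0.0381 over 12 ratio tests). D70 and D30 differed by 0.62 (exact permutation p = 0.257, adjusted p = 0.281), and by 0.34 to 0.84 with 1 library left out. The arms differed in size: D30 over D12 was 1.71 in the DMSO and 0.91 in the TMG libraries, and D70 over D30 was 0.27 and 0.98. Within an arm, 2 against 2 libraries could not reach a p under 0.05 by this test. The lower D70 log2 ratios, 2.88 and 3.11, were those of the mesenchyme-high libraries, while the other 2, at 4.34 and 3.76, lay above every D30 library (at most 3.39).

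DNMT3L (ENSG00000142182, chr21:45666222-45682099, minus strand) was close to undetected. Its counts summed to 21 over the 16 libraries, with at most 5 in a library, or 0.309 CPM. The antisense gene DNMT3L-AS1 had 18 counts, and with no strand stated for the counting the reads of both cannot be told apart. Both control libraries of D70 had 0 counts of DNMT3L. At this depth no difference in DNMT3L between stages or arms was detectable.

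DNMT1, which copies methylation after replication (ENSG00000130816, chr19:10244018-10341962, minus strand), declined over a smaller range than DNMT3B. The controls had 246 and 243 CPM at D0, 130 and 151 at D12, 63.1 and 71.8 at D30, and 79.1 and 72.6 at D70. The D0, D12 and later libraries formed 3 levels with no overlap, while D30 and D70 lay close together. The fall was 3.62-fold by D30 (log2 -1.86, SE 0.27, adjusted p = 0.000836) and 3.22-fold by D70 (log2 -1.69, SE 0.27, adjusted p = 0.00135). On D12 the log2 difference of -0.80 (SE 0.26) had an adjusted p of 0.0614 by edgeR and of 0.0323 by DESeq2. From D12 to D30 (log2 -1.06) and to D70 (log2 -0.89) the adjusted p were 0.0551 and 0.0546 by edgeR and 0.00794 and 0.0218 by DESeq2. Without the 3 mesenchyme-high libraries these 3 differences passed by edgeR too, at 0.017, 0.0104 and 0.0444, the last resting on D70 control replicate 1 alone. In TMG-treated cells the D12 fall passed (log2 -0.94, adjusted p = 0.0356) but was lost without D0 TMG replicate 1, D0 TMG replicate 2 or D12 TMG replicate 1, at adjusted p of 0.127 to 0.24. The gene overlaps S1PR2 on the same strand, which had 2243 counts over all libraries against 34862 for DNMT1.

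Levels of 14 proliferation markers, among them MKI67 and TOP2A, moved with DNMT1, which is known to be highest in dividing cells. Their summed CPM was 3052 to 3441 at D0, 1049 to 1681 at D12, 447.5 to 1137 at D30 and 486 to 785 at D70. Against D0 in controls, 30.6% of all genes passed by D30 and 29.8% by D70, in either direction. All 7 stem cell markers fell by both stages, and of the 14 proliferation markers 13 fell by D30 and all 14 by D70. PCNA, the replication clamp, stands in this list and among the methylation cofactors. Whether the share of dividing or undifferentiated cells sets the levels of DNMT1 and DNMT3B was not tested.

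Most cofactors of methylation fell by D12 and every tested one by the later stages. Of 10 listed cofactors 8 could be tested: 7 fell and 0 rose by D12, and all 8 fell by D30 and by D70, beside 16.7%, 30.6% and 29.8% of all genes in either direction, with median log2 changes of -1.55 and -1.67 on the later stages. HELLS, a chromatin remodeller needed for methylation of repeats, went from 424 and 376 CPM in D0 controls to 38.2 and 31.2 on D30 (log2 -3.53, SE 0.30, adjusted p = 8.34e-05). HELLS had also dropped by D70 (log2 -3.28, adjusted p = 8.6e-05). Its partner CDCA7 fell from 93.4 and 95.7 CPM to 4.32 and 3.26 on D30 (log2 -4.65, SE 0.63, adjusted p = 0.000598) and by 2.89 on D70. PCNA fell by 2.40 on D30 and 1.89 on D70, and CDCA7L, a relative of CDCA7, fell by 1.62 and 1.73. The values of HELLS and CDCA7 were larger than that of DNMT1, a difference that was not tested.

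TET1, the TET enzyme of pluripotent cells (ENSG00000138336, chr10:70320094-70454244), fell. The controls had 378 and 280 CPM at D0, 181 and 147 at D12, 119 and 123 at D30, and 77.9 and 154 at D70. Every later library lay below D0, but the D70 pair lay on both sides of D30 and overlapped D12. The fall was 2.72-fold by D30 (log2 -1.44, SE 0.30, adjusted p = 0.00513) and 2.84-fold by D70 (log2 -1.50, SE 0.30, adjusted p = 0.00434). The 2.01-fold fall by D12 passed at 0.0408 and was lost without any 1 of the 4 control libraries of D0 and D12, at adjusted p of 0.0629 to 0.213, and when the control libraries were fitted alone (0.0808). Without the 3 mesenchyme-high libraries the D70 fall was 2.06 on the log2 scale and D70 lay below D12 by 1.06. Both values rest on D70 control replicate 1 alone. In TMG-treated cells TET1 fell 4.56-fold by D70 (log2 -2.19, adjusted p = 0.000696), and its D12 fall (log2 -1.05, adjusted p = 0.0351) was lost without any 1 of the 4 TMG libraries of D0 and D12, at adjusted p of 0.117 to 0.18. RPS3AP37, a pseudogene within TET1, held 505 counts over all libraries.

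TET2, widely expressed outside stem cells (ENSG00000168769, chr4:106067032-106200973), was the only member to rise past the threshold. The controls had 21.8 and 25.2 CPM at D0, 67.4 and 72.2 at D12, 77.9 and 85.3 at D30, and 86.3 and 122 at D70. The stages followed each other without overlap in the controls. The rise from D0 was 2.97-fold by D12 (log2 1.57, SE 0.31, adjusted p = 0.00785), 3.47-fold by D30 (adjusted p = 0.0019) and 4.44-fold by D70 (log2 2.15, SE 0.31, adjusted p = 0.000773), and steps between later stages did not pass. Without D0 control replicate 1 the D12 rise had an adjusted p of 0.0646 (log2 1.47). TMG-treated cells showed rises of 3.87-fold, 4.26-fold and 6.16-fold. Without the 3 mesenchyme-high libraries the D70 rise was 1.90 in controls and 1.99 in TMG-treated cells on the log2 scale, against 2.15 and 2.62 with them. On D70 the higher TET2 library of each arm was the mesenchyme-high one, with 122 and 193 CPM against 86.3 and 89.8.

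TET3, known from neural cells and the oocyte (ENSG00000187605, chr2:74212037-74335303), did not pass between any pair of stages tested in the fit of all libraries. The controls had 80.5 and 90.2 CPM at D0, 68.1 and 75.3 at D12, 43.7 and 62.6 at D30, and 74.7 and 109 at D70. D30 was the lowest stage and D70 overlapped D0. The D30 difference was -0.68 (SE 0.30, adjusted p = 0.107). It was -0.64 in the fit without the 3 mesenchyme-high libraries, none of which belongs to that comparison. In TMG-treated cells TET3 had 91.9 and 97.6 CPM on D0 and 118 and 195 on D70 (log2 0.72, SE 0.30, adjusted p = 0.0923), against a D70 difference of 0.11 in controls, which ran from -0.19 to 0.36 with 1 library left out. The TMG value was 0.34 without the 3 libraries, 0.32 without D70 TMG replicate 2, and 1.04 without D70 TMG replicate 1. The last value rests on the mesenchyme-high replicate 2 alone on D70.

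TET3 gained on TET1 with the stage. Their CPM ratio was 0.213 to 0.322 at D0, 0.377 to 0.556 at D12, 0.369 to 1.16 at D30 and 0.708 to 2.78 at D70. All libraries of D12, D30 and D70 lay above all of D0. The mean log2 ratio over 4 libraries rose from -1.99 ± 0.26 (SD) at D0 to -1.03 ± 0.26 at D12, -0.65 ± 0.71 at D30 and 0.28 ± 0.85 at D70. D12, D30 and D70 each exceeded D0, and D70 exceeded D12 by 1.31, at p = 0.0286 by the exact two-sided permutation test (adjusted p = 0.0381). D30 over D12 (0.37, exact permutation p = 0.486) and D70 over D30 (0.93, exact permutation p = 0.2) did not pass, and ran from 0.08 to 0.63 and from 0.54 to 1.22 with 1 library left out. The D30 over D12 difference was -0.02 in the DMSO libraries and 0.77 in the TMG libraries. The highest ratios of D30 and D70, 1.16 and 2.78, were those of the mesenchyme-high TMG libraries. The arms differed in size: from D0 to D30 the ratio rose by 0.72 in controls and by 1.95 in TMG-treated cells, and to D70 by 1.65 and 2.89, a difference that was not tested.

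**Figure D2:**
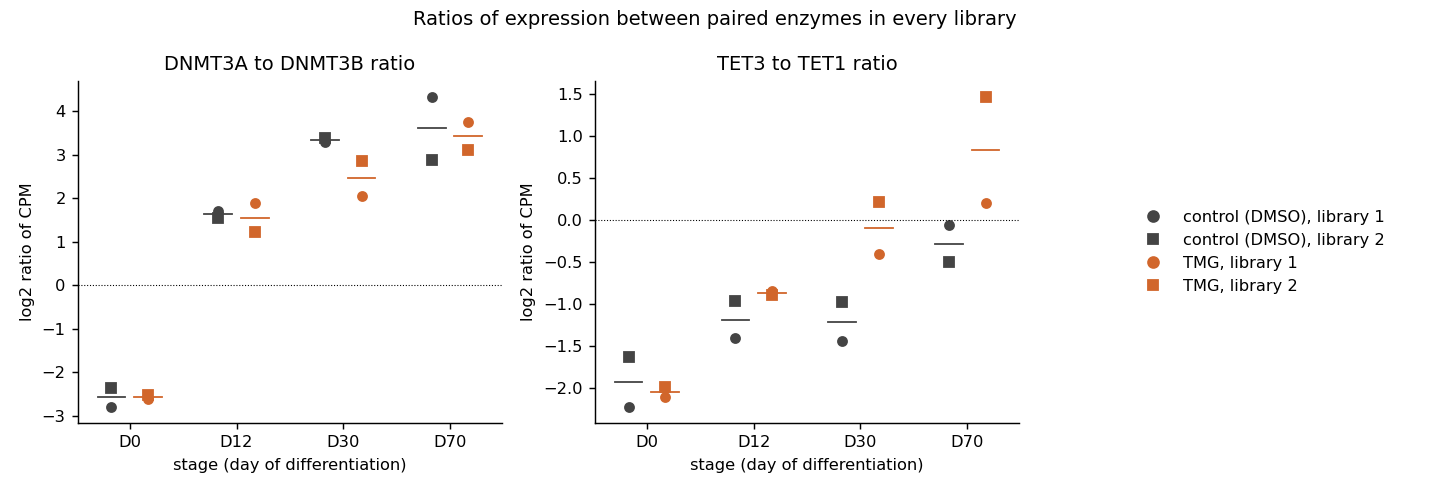
Log2 of the CPM ratio of DNMT3A to DNMT3B and of TET3 to TET1 in each of the 16 libraries by stage, with a bar at the mean of each arm and a dotted line at equal CPM. The first ratio goes from a mean over 4 libraries of -2.57 on D0 to 3.52 on D70, and the second from -1.99 to 0.28.

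TDG, which removes oxidised methylcytosine from DNA (ENSG00000139372, chr12:104359600-104382652), fell slightly. The controls had 54.6 and 51.2 CPM at D0, 39.3 and 40.7 at D12, 46.2 and 38.8 at D30, and 34.7 and 28.1 at D70. D70 lay below all other stages. The 1.68-fold fall by D70 passed (log2 -0.75, SE 0.16, adjusted p = 0.00603), also when any 1 library was left out, while D12 (log2 -0.40, adjusted p = 0.107) and D30 (log2 -0.32, adjusted p = 0.153) did not. In TMG-treated cells the D70 fall was 0.59 (SE 0.16, adjusted p = 0.0191) and was lost without D0 TMG replicate 1, D0 TMG replicate 2 or D70 TMG replicate 1, at adjusted p of 0.068 to 0.133, and without the filter on low counts (log2 -0.56, adjusted p = 0.129). TDGP1, a pseudogene, had 15 counts in all.

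To compare the genes with each other, CPM were divided by exon length in kilobases. Among the D0 controls DNMT3B led with 210 ± 40.4 (SD, n = 2) CPM per kilobase, followed by DNMT1 (46.3 ± 0.509) and TET1 (34.3 ± 7.23). TDG (16.6 ± 0.757) and DNMT3A (16.1 ± 0.375) did not differ beyond their spread, and TET3 (7.08 ± 0.573) and TET2 (2.45 ± 0.248) came last before DNMT3L. By D70 the means were 14.4 ± 0.87 for DNMT1, 12.1 ± 1.6 for DNMT3A, 12.1 ± 5.61 for TET1, 10.9 ± 2.66 for TET2 and 9.87 ± 1.48 for TDG. TET3 had 7.63 ± 2.02 and DNMT3B 2.31 ± 1.3. Neighbours in this order from DNMT3A to TET3 overlapped in their libraries. TET1 in D70 control replicate 2, at 16.04, also lay above both DNMT1 libraries, at 14.99 and 13.76. The order above DNMT3B on D70, with its first place, is therefore not fixed. DNMT3B thus went from the first place to the last of the tested members.

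Of 13 genes of excision repair after TET oxidation, 4 fell and 0 rose by D30 and likewise by D70, with medians of -0.66 and -0.65. The number that passed is near the share of all genes, 30.6% on D30 and 29.8% on D70. NEIL3, a glycosylase of dividing cells, fell by 2.46 on D30 and 2.50 on D70 on the log2 scale, PARP1, which senses strand breaks, fell by 1.76 and 1.80, and APEX1, the abasic site nuclease, fell by 1.98 and 1.01. GADD45G fell by 3.57 on D30, and LIG3, the ligase of the pathway, fell by 0.68 on D70. The GADD45G call was lost without D0 control replicate 2 or D30 control replicate 1 (adjusted p 0.0981 to 0.157) and the D70 call of APEX1 without D0 control replicate 1, D70 control replicate 1 or D70 control replicate 2 (0.0569 to 0.0704).

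Among 18 genes of methyl donor and 2-oxoglutarate supply, 2 rose and 5 fell by D30, and 5 rose and 6 fell by D70, beside 30.6% and 29.8% of all genes in either direction. SHMT1, of the serine to glycine step, fell by 2.10 on D30 and 1.41 on D70 on the log2 scale. AHCY, which clears S-adenosylhomocysteine, fell by 1.68 on D30, and MAT2A, which makes S-adenosylmethionine, fell by 1.46. IDH1, a source of 2-oxoglutarate, fell by 1.37 on D70. NNMT, which consumes methyl groups, rose on D70 by 5.92 (SE 1.79, adjusted p = 0.03), a value carried by D70 control replicate 2 with 252 counts against 12 in the other, without which it was 2.17 (adjusted p = 0.368). The NNMT call was also lost without D0 control replicate 1 or 2 and without the filter on low counts (adjusted p = 0.0977). On D70 the calls of SHMT1 (without D70 control replicate 1, adjusted p = 0.0571) and IDH1 (without D0 control replicate 1, adjusted p = 0.0531) were lost without 1 library too.

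Proteins that read CpG or methyl-CpG went in both directions. Of 13 readers, 6 rose and 3 fell by D30 and 3 rose and 1 fell by D70, with median log2 changes of 0.27 and 0.42. Of all genes 30.6% and 29.8% passed, so the D70 number is near the background. ZBTB38, a zinc finger reader, rose from 11.9 and 19.7 CPM in D0 controls to 63.7 and 42.2 on D30 (log2 1.74, adjusted p = 0.0011) and by 2.21 on D70. ZBTB4, its relative, rose by 1.29 and 1.79. CXXC4, a CpG binding protein known to interact with TET2, rose by 2.91 on D30 (adjusted p = 0.0158), a call lost without D0 control replicate 1 or D30 control replicate 1 (0.0604 to 0.106). MBD3, of the NuRD complex, fell by 1.41 on D30, and KDM2B, a CpG island reader, fell by 1.39 on D70.

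Of 8 partners of TET enzymes and OGT, 7 were tested, of which 1 rose and 4 fell by D30 and 0 rose and 4 fell by D70, beside the same shares of all genes. PROSER1 fell by 0.92 and 1.12, HCFC1, a substrate of OGT, by 0.91 and 1.17, and SETD1A, an H3K4 methyltransferase, by 0.86 and 1.02. The corepressor SIN3A fell by 0.60 on D70. On D30 HCFC1 was lost without D30 control replicate 1 (adjusted p = 0.0525) and SETD1A without D0 control replicate 2 or D30 control replicate 1 (0.0769 to 0.113). On D70 SIN3A was lost without D0 control replicate 1 (0.0698). The gene that rose on D30 was CXXC4.

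**Figure D3:**
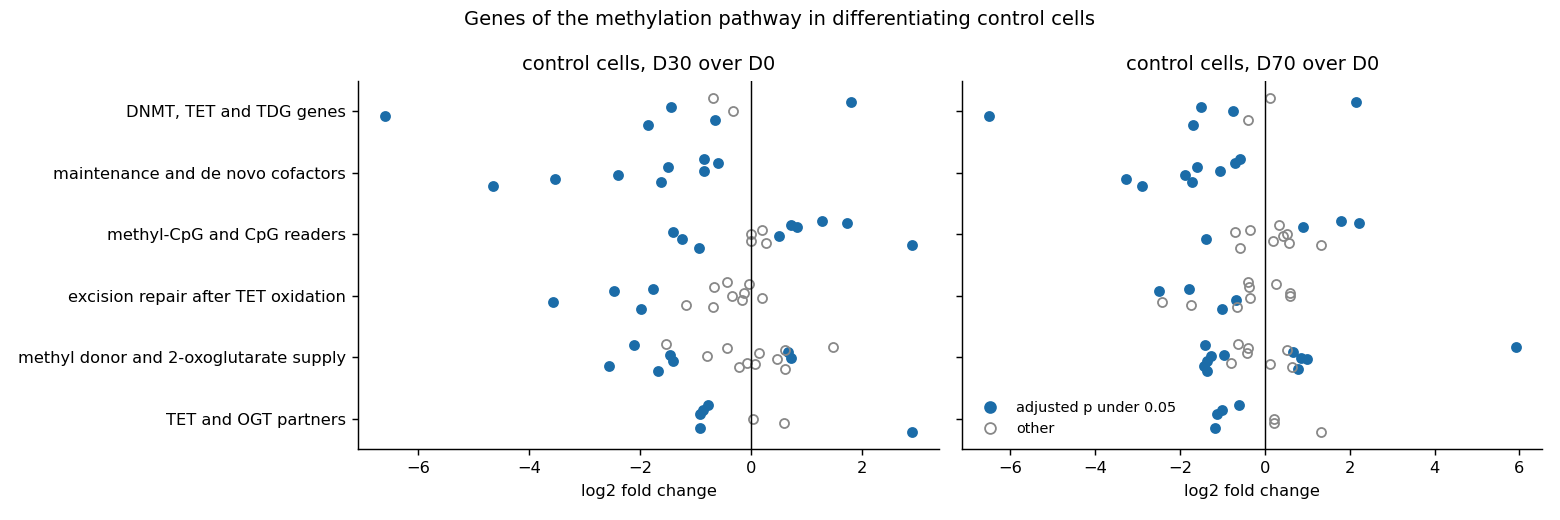
Log2 fold change of the members and of the genes of the 5 lists around them in control cells, for D30 over D0 and D70 over D0, with genes past a false discovery rate of 5% marked. The 8 tested methylation cofactors all lie below 0 at both stages, while the readers spread to both sides.

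The course in TMG-treated cells was tested in the same fit. Relative to D0, 4 of 7 members passed on D12, beside 16.4% of all genes. With any 1 TMG library of D0 or D12 left out fewer members passed on D12, and a smaller share of all genes passed too. On D30 4 members passed, beside 27.7%, and on D70 5, beside 29% of genes. DNMT1, DNMT3B, TET1 and TET2 passed at all 3 stages, and TDG on D70. DNMT1 fell 3.22-fold by D30 and 3.38-fold by D70 in these cells. A member that passed in one arm and not in the other, such as DNMT3A on D30, is not thereby shown to differ between the arms.

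No member passed for TMG over control at any single stage in the main edgeR fit, which called 0% of all genes for D0, 0% for D12, and 0% at both later stages. With the replicate number as a block within the stage edgeR called TET3 on D30 (log2 1.19, adjusted p = 0.0296), beside 0.961% of all genes. No label says what that number marks. At an unadjusted p under 0.05 the members numbered 0, 0, 3 and 2 of 7, and all genes 306, 601, 2908 and 1332. DESeq2 called 0 members on D0, D12 and D70 and 2 on D30, TET3 and DNMT3B, among 5, 11, 597 and 55 genes at the 4 stages in order. No member's TMG effect differed between the stages (0% of all genes by edgeR, smallest unadjusted p among the members 0.14). Of all genes 582 had an unadjusted p under 0.05 in that test, and DESeq2 called 48 genes and 0 members. With the 4 stages averaged, a comparison added after the values had been seen, the main edgeR fit called 0.00412% of genes and no member. DESeq2 called 1 member, TET3, among 2.12% of genes, and edgeR with the block within the stage called TET3 among 0.272%.

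**Figure D4:**
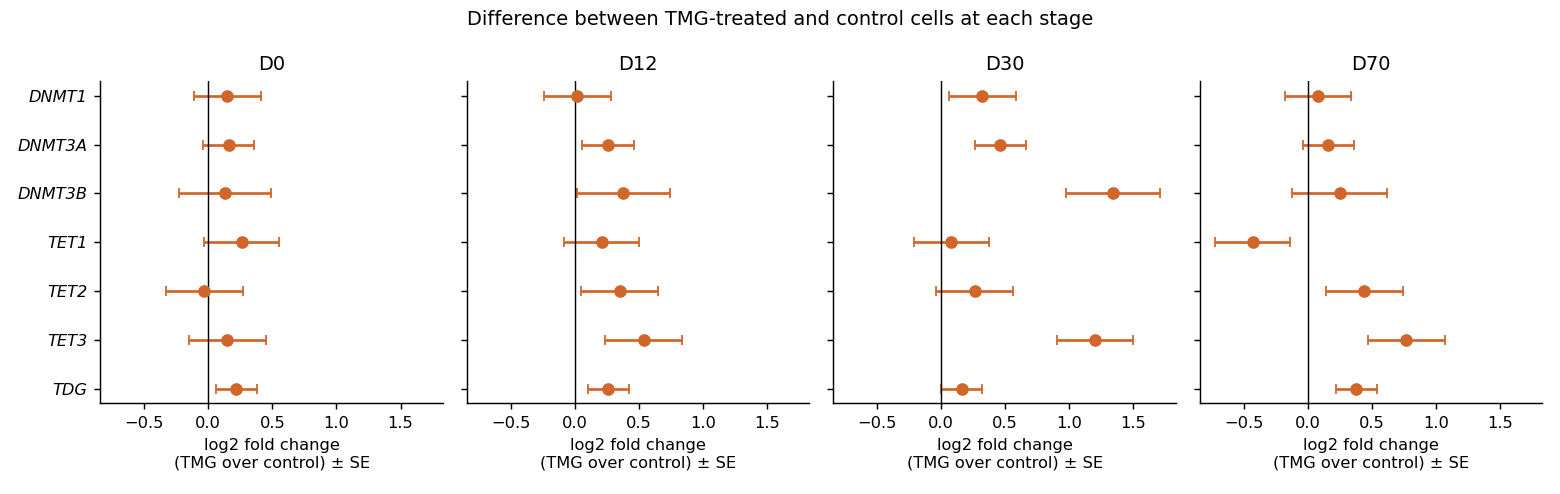
Log2 fold change of TMG over control for each tested member at each stage with its standard error. The TET3 and DNMT3B values of D30, 1.2 and 1.34, are the farthest from 0, and the main edgeR fit called none of the values.

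TET3 had the lowest unadjusted p of the members on D30. Its TMG libraries had 91.9 and 97.6 CPM on D0 and 101 and 107 on D12. The later stages had 93.1 and 152 (D30) and 118 and 195 CPM (D70), and both lay above both controls at every stage. Over all genes, 0.441% had both TMG libraries above both controls at all 4 stages. The log2 differences were 0.15 (SE 0.30), 0.54, 1.2 and 0.77, the last ranging from 0.36 to 1.09 when a single library was left out. On D30 the unadjusted p was 0.0022, the adjusted p 0.204 by edgeR and 0.0201 by DESeq2, and leaving out single libraries gave 0.81 to 1.51. The higher TET3 library of the D30 TMG pair and of each D70 pair was the mesenchyme-high one. Without these 3 the D30 value was 0.77 (adjusted p = 0.274), so the direction held and the size fell. The average of the stages was 0.66 (SE 0.15, adjusted p = 0.179 by edgeR and 0.00791 by DESeq2), and 0.53 (adjusted p = 0.0711) without the 3 libraries. Without D70 TMG replicate 1 the average was 0.74, with the D70 TMG arm resting on the mesenchyme-high replicate 2 alone.

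DNMT3B on D30 was the other member called by DESeq2. Its TMG libraries had 25.9 and 21.6 CPM against 8.27 and 10.4 in the controls, with no overlap, a difference of 1.34 (SE 0.37, unadjusted p = 0.00436, adjusted p = 0.228 by edgeR and 0.0312 by DESeq2). It was 1.43 (adjusted p = 0.15) without the 3 mesenchyme-high libraries. The difference was 0.13 on D0, 0.38 on D12 and 0.25 on D70, the last being 0.68 without those libraries. None of these 3 kept its sign when single libraries were left out, with ranges of -0.05 to 0.34, -0.02 to 0.69 and -0.24 to 1.00. In the same D30 libraries the summed stem cell markers were 60.1 and 32.3 CPM in controls and 83.5 and 28.9 in TMG, and 6 of the 7 were higher in the TMG mean. By edgeR 0 of them passed and 3 had an unadjusted p under 0.05, and DESeq2 called 3, POU5F1, NANOG and TDGF1. Of all 24249 genes on D30, 50.8% were higher, 2908 had an unadjusted p under 0.05 by edgeR and DESeq2 called 2.46%. All 14 proliferation markers were higher in the TMG mean, with 0 called by edgeR, 7 at an unadjusted p under 0.05 and 3 called by DESeq2 (MCM4, MCM7 and RRM2). Their sum was 457 and 447.5 CPM in controls and 565 and 1137 in TMG. Neuron markers summed to 563 and 684 CPM in controls and 820 and 1059 in TMG, with 7 of 8 higher in the TMG mean, 0 called by edgeR and 1 by DESeq2 (ELAVL4). Astroglia markers summed to 6.86 and 8.23 CPM against 14.2 and 55.8, with 4 of 4 higher, 0 called by edgeR and 1 by DESeq2 (SLC1A3). All 6 mesenchyme markers were higher too, with 0 called by either tool. Of the choroid plexus and roof plate markers 3 were higher and 1 lower, with 0 called by either tool. Neural progenitor markers went the other way. Of 5 tested 1 was higher and 4 were lower (median log2 -0.21), with 1 at an unadjusted p under 0.05 and 0 called by either tool. HELLS had 50.4 and 91.8 CPM in TMG (log2 1.03, unadjusted p = 0.00319, adjusted p = 0.22 by edgeR and 0.0324 by DESeq2), and its difference was 0.50 (adjusted p = 0.482) without the 3 mesenchyme-high libraries. The part of the cells that these markers stand for in the DNMT3B and TET3 differences was not tested.

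**Figure D5:**
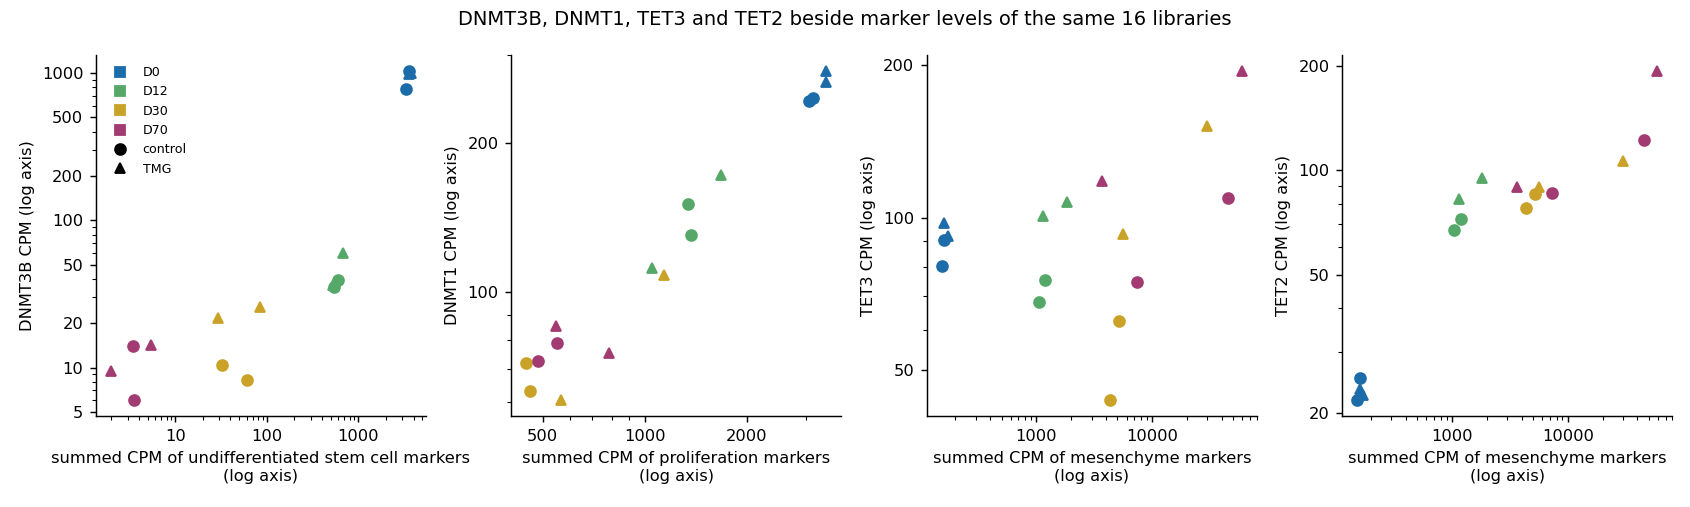
DNMT3B against summed stem cell markers, DNMT1 against summed proliferation markers, and TET3 and TET2 against summed mesenchyme markers in the 16 libraries, all in CPM on log axes, coloured by stage and shaped by arm. On D30 the TMG libraries have 21.6 and 25.9 CPM of DNMT3B and the controls 8.27 and 10.4 at stem cell marker sums that overlap.

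Apart from TET3 and DNMT3B on D30, no member was called for TMG over control at any single stage by edgeR or DESeq2. TDG was higher in both TMG libraries than in both controls at all 4 stages, as were 0.441% of all genes. Its log2 differences were 0.22, 0.26, 0.16 and 0.38 in the order of the stages (SE 0.16 each). On D70 the unadjusted p was 0.035 and the adjusted p 0.894 by edgeR. Leaving out single libraries gave 0.04 to 0.29 on D30 and 0.26 to 0.55 on D70 for TDG, and without the 3 mesenchyme-high libraries the D70 value was 0.17. DNMT3A differed by 0.16, 0.26, 0.46 and 0.16 (SE 0.20 each), with an unadjusted p of 0.0413 on D30 and an adjusted p of 0.398, and its D30 value was 0.13 without those libraries. DNMT1 differed by 0.15, 0.02, 0.32 and 0.08. TET1 differed by 0.26, 0.21 and 0.08 on the first 3 stages and by -0.43 on D70, which became 0.41 without the 3 mesenchyme-high libraries. TET2 differed by -0.03, 0.35, 0.26 and 0.44, the last pair being 0.10 and 0.07 without those libraries. With single libraries left out the sign turned for DNMT1 on D12, D30 and D70, for TET1 on D70 and for TET2 on D0 and D70.

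The direction was the same for most members at each stage. The TMG mean was higher for 6, 7, 7 and 6 of the 7 members from D0 to D70, while 48.7%, 50.3%, 50.8% and 48.7% of all genes were higher. It was also higher for 14, 8, 14 and 12 of the 14 proliferation markers and for 8, 4, 7 and 5 of the 8 tested cofactors. Of the 13 readers 7, 6, 6 and 6 were higher. The members come from the same libraries and several correlate strongly, so they are not separate observations. Without the 3 mesenchyme-high libraries, DNMT1 and TET1 lay below the controls on D30 (-0.19 and -0.01), and DNMT1 on D70 (-0.06). The TMG libraries did not overlap the controls for 5 members at each of D0, D12 and D30 and for 2 at D70, always from above, beside 36.6%, 34.3%, 44.1% and 22.1% of all genes in either direction. The 2 members of D70 were TET3 and TDG, which were above at each of the 4 stages.

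The enzymes of the O-GlcNAc cycle were read beside the TET genes. OGT had 403 and 424 CPM in the D0 controls and 481 and 476 with TMG, and on D12 490 and 479 against 635 and 582. D30 gave 434 and 414 in controls against 598 and 720, and D70 gave 501 and 457 against 608 and 656. At every stage the 2 TMG values exceeded the 2 control values, which held for 0.441% of all genes. The log2 differences were 0.21, 0.33, 0.64 and 0.40, that of D30 with SE 0.15, an unadjusted p of 0.00172 and an adjusted p of 0.194 by edgeR and 0.00108 by DESeq2. It was 0.46 (adjusted p = 0.414) without the 3 mesenchyme-high libraries. OGA, the target of TMG, differed by 0.39, 0.22, 0.16 and 0.43, with no adjusted p past the threshold, and its D30 value ran from -0.03 to 0.32 with 1 library left out. Its mRNA does not report on inhibition of the enzyme.

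Of the 57 distinct genes tested in the 5 lists, the main edgeR fit called 0 for TMG over control at each stage. At an unadjusted p under 0.05 there were 0, 2, 10 and 4, beside 306, 601, 2908 and 1332 of 24249 genes. DESeq2 called 3 on D30, OGT, HELLS and CDCA7, beside 2.46% of all genes, and 0 at the other stages. At D0 the lowest unadjusted p by edgeR belonged to GADD45A, a stress gene linked to demethylation (log2 -0.84, 0.0583, with -1.39 to 0.07 when 1 library was left out), and GLUD1, of 2-oxoglutarate supply (log2 0.38, 0.0822). At D12 they belonged to ZBTB38 (log2 0.68, 0.024) and SHMT1 (log2 -0.78, 0.0314), and on D30 to OGT and HELLS. At D70 MTR, methionine synthase (log2 -0.68, 0.0102), and the glycosylase NEIL2 (log2 -0.62, 0.0135) came first. Adjusted over all genes these were between 0.194 for OGT and 1.

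Across the 16 libraries, which share their stage and arm, log2 CPM of DNMT3B and TET1 correlated at r = 0.93, DNMT3B and TET2 at -0.90, and DNMT3B and TET3 at 0.02. The genes whose course was most like each member's were found over the same 16 libraries. They were DDIAS, SAE1 and NCAPG2 for DNMT1 (r of 0.993, 0.99 and 0.987), EIF4E2, SRF and TTL for DNMT3A (0.943, 0.92 and 0.918), and SRPK1, JARID2 and SRSF1 for DNMT3B (0.992, 0.983 and 0.983). For TET1 they were SMC3, CCDC88A and AIF1L (0.974, 0.968 and 0.965), for TET2 HGSNAT, ANXA2 and RBMS2 (0.977, 0.974 and 0.973), and for TET3 C1QTNF1, CHMP3 and IRX5 (0.939, 0.926 and 0.924). TDG was followed by PAFAH1B2, SETP14 and U2AF1 (0.902, 0.888 and 0.886). DNMT1 and DNMT3B had near matches, while TDG and TET3 had weaker ones.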

How the data were processed

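RNA after rRNA depletion was sequenced in 16 libraries of H9 cells. The authors used Bowtie2 with hg19 and deposited, per Ensembl gene, the estimated counts of RSEM 1.2.12 as unnormalized whole numbers. Genes were named through reference tables of gene identifiers. From these counts, edgeR 4.0.16 (R 4.3.3) kept genes by filterByExpr (minimum count 10, minimum total 15) over 8 groups, scaled by TMM and tested contrasts by the robust quasi-likelihood F-test, with 1 mean per group over 16 libraries and 8 residual degrees of freedom. Benjamini-Hochberg adjustment ran over the 24249 genes of a comparison at a false discovery rate of 5%. Log2 ratios of CPM (prior count 2) were compared by exact permutation tests in scipy 1.17.1. Code was tested on simulated counts. Promoters were read from GRCh37 with GENCODE canonical starts.

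Named are all members, OGT, OGA, up to 4 genes of largest change per list and control comparison, the 2 lowest p per TMG stage and the 3 most similar genes per member. Members and lists were chosen with earlier results of these data known. Alternatives were DESeq2 1.42.0, RLE normalization, no filter, prior count 0.5, the replicate number as a block, fits within an arm or stage, and each library left out. The biological coefficient of variation was 0.379, and replicates differed by more than counting error (chi-square per degree of freedom 25.55 to 158.8), so depth limits only genes with few counts. Single results of some genes under the rule for named genes, and some promoters, are not reported here.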

Additional observations from a re-analysis of the deposited data

How the results depend on the processing

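Of the values for single genes under the alternatives, 1506 kept direction and side of the threshold, 29 gained and 54 lost a call and 37 changed sign; of counts and ratios 281 held and 26 moved. Same-numbered replicates deviated together at r of 0.045, 0.367, 0.223 and 0.607 from D0 to D70, and no label says what a shared number marks. With the replicate number as a block 2 members passed for D30 over D12 in controls, beside 4.38% of all genes, and 2 for D70 over D12, beside 12%. TET3 passed for D30 over D0 in controls (-0.71, adjusted p = 0.0259) and for D70 over D0 in TMG-treated cells (0.68, adjusted p = 0.0316). DNMT1 passed for D12 over D0 in controls (adjusted p = 0.0405). For TMG on D30 the block within the stage gave 1 member (TET3, adjusted p = 0.0296), beside 0.961% of all genes. In the mean of stages it gave 1 (TET3), beside 0.272%, and DNMT1 on D12 became -0.01. DESeq2 gave 2, 2, 2 and 1 for the same 4 counts, control libraries alone 2 and 2 for the control pairs, and no filter 2 for D30 over D12; the cause was not tested. DNMT3A for D70 over D12 was 0.01 by DESeq2 and 0.01 by RLE. The TET3 to TET1 ratio for D30 over D12 was -0.02 in DMSO libraries. Without the 3 mesenchyme-high libraries, an alternative chosen after seeing the data, more members passed for D30 over D12 and for D70 over D12. A larger share of all genes passed for both pairs too. In controls TET3 was then -0.17 for D70 over D0, DNMT3A 0.13 for D70 over D12 and DNMT3B -0.65 for D70 over D30, and TET3 was -0.04 for D30 over D0 in TMG-treated cells. For TMG over control, DNMT1 was then -0.19 on D30, -0.06 on D70 and -0.02 in the mean, and TET1 -0.01 on D30 and 0.41 on D70.

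With each library left out in turn, where a lone library is assumed to vary like the other groups, the control counts ran from 1 to 2 (D12 over D0), 0 to 0 (D30 over D12) and 0 to 2 (D70 over D12), the TMG count of D12 over D0 from 2 to 3 and that of the mean of stages from 0 to 1. For each of these comparisons between stages a smaller share of all genes passed too than with all libraries, so calls lost there are not particular to the members. In controls TDG for D30 over D12 ran from -0.05 to 0.21, TET3 for D70 over D0 from -0.19 to 0.36, DNMT3A for D70 over D12 from -0.15 to 0.10, DNMT3B for D70 over D30 from -0.68 to 0.58 and TET1 for D70 over D30 from -0.68 to 0.35. TET3 for D30 over D0 in TMG-treated cells ran from -0.03 to 0.68. For TMG over control on D0, DNMT3B ran from -0.05 to 0.34, GADD45A from -1.39 to 0.07 and TET2 from -0.13 to 0.07, and on D12 DNMT1 from -0.33 to 0.29 and DNMT3B from -0.02 to 0.69. On D30 DNMT1 ran from -0.15 to 0.68 and OGA from -0.03 to 0.32, and on D70 DNMT1 from -0.01 to 0.17, DNMT3B from -0.24 to 1.00, TET1 from -0.84 to 0.17 and TET2 from -0.22 to 0.89. TET1 in the mean of stages ran from -0.07 to 0.18. Depth limited DNMT3L alone among the members.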
